A study of Homo sapiens with 2 samples.

Results

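NEAT1 and MALAT1 are neighbouring genes for nuclear long noncoding RNAs on chromosome 11, and both carried EGR1 ChIP-seq intervals at their starts in t-HESC cells. Their intervals were chosen by position from the deposited list: every interval within 10 kb of NEAT1 (chr11:65190269-65213011, GRCh37) or of MALAT1 (chr11:65265233-65273940, GRCh37) was taken. That gave 8 intervals of the 7709 in the list, 3 at NEAT1 and 5 at MALAT1. The list comes from 1 library of untreated cells of the t-HESC line, an immortalised human endometrial stromal line, precipitated with an antibody against EGR1. An input library of the same line, without antibody, was not analysed here, and neither library has a replicate. The cells were grown in a medium with serum and puromycin. Because the presence of an interval chose the members, their number and place are descriptions of 1 library. No difference below was tested, and the spread between cultures is unknown. Read totals were not used here, so the depth is unknown. Whether the cells carried stromal marker RNAs was not analysed here.

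EGR1 is an immediate early zinc-finger transcription factor that is induced by serum and growth factors and binds GC-rich DNA. NEAT1 RNA is the scaffold of paraspeckles, nuclear bodies that hold RNA-binding proteins. A short and a long NEAT1 isoform begin at the same start, and the long one builds the paraspeckle. MALAT1 RNA is among the most abundant nuclear noncoding RNAs, gathers at nuclear speckles rich in splicing factors, and is cut near its end to release the small cytoplasmic RNA mascRNA. Both genes are taken here to be read toward higher coordinates. RefSeq's promoter table gives this strand for MALAT1, and for NEAT1 it is general knowledge not read from the files, so "upstream" below means lower coordinates. In the order of genes in RefSeq on GRCh38.p14, FRMD8 and SLC25A45 precede NEAT1. MIR612, FAUP4, ENEMAL and LINC02736 are listed between NEAT1 and MALAT1. TALAM1, an RNA antisense to MALAT1, MASCRNA and SNRPGP19 are listed after MALAT1. The order of listing does not mean that the genes lie apart, since mascRNA itself is cut from MALAT1 RNA. Which of the listed genes overlap NEAT1 or MALAT1 was not analysed here. No interval was placed on any of these other genes, because their positions on GRCh37 were not used here.

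The promoter sequence is shown because an EGR1 interval lay across each gene's start. RefSeq gives 2 promoter windows for MALAT1, each from 250 bases before to 50 bases after a start, and their starts are 1307 bases apart. Window 1 lies at chr11:65497488-65497787 and window 2 at chr11:65498795-65499094, both on the plus strand of GRCh38.p14. NEAT1 was not matched in that table. Capitals mark the EGR1 word GCGGGGGCG and the shorter core GTGGGCG, both of which lie on the minus strand here and so are seen as their reverse complements.
MALAT1 window 1: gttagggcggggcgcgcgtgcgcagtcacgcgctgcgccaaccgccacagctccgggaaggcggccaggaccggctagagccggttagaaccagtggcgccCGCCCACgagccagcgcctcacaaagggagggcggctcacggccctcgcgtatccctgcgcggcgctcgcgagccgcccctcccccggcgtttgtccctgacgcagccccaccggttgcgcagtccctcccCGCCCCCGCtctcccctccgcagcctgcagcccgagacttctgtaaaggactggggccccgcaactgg
MALAT1 window 2: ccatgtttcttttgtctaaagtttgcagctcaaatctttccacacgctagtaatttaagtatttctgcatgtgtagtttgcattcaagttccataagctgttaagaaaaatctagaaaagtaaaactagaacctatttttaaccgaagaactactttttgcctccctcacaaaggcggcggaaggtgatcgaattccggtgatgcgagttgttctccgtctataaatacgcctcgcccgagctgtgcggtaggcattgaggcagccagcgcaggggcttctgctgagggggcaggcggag

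Window 1 of MALAT1 was GC-rich and held an EGR1 word, and window 2 was neither GC-rich nor held one. Both words GCGTGGGCG and GCGGGGGCG were searched on both strands. Window 1 held GCGGGGGCG once, beginning 18 bases before that window's RefSeq start on GRCh38, and did not hold GCGTGGGCG. This RefSeq start was not matched to the GRCh37 gene start used for the intervals. The word GCGGGGGCG occurs in 5.07% of the 35116 promoter windows of the table and GCGTGGGCG in 0.795%. At least 1 of the 2 words is found in 5.77%. The core GTGGGCG, which is 2 letters shorter, occurred once in window 1, beginning 149 bases before the same RefSeq start. That core is found in 9.52% of all windows. The other core searched, GGGGGCG, lay inside the longer word and is found in 22.8% of all windows. Both marked words overlapped the letters GGGCGG, the core of the GC box that SP1 and KLF factors bind, and window 1 held that core 5 times. The core GGGCGG is found in 45% of all windows. GC content was 73.7% in window 1 and 46% in window 2, against a median of 58.7% over all windows (quartiles 47 and 68%). Window 1 held 37 CpG dinucleotides and window 2 held 14, against a median of 14. In GC content, 87.7% of all windows lay below window 1. The shares above are over windows of any GC content, and none was taken among windows as GC-rich as window 1. A match describes letters only. The windows are on GRCh38 and the intervals on GRCh37, positions were not converted, and so the overlap of these letters with an interval was not determined.

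Among the genes whose proteins build paraspeckles or nuclear speckles, 1 of 22 promoter windows held an EGR1 word of 9 letters, a share near the 5.77% of all windows. Of 14 paraspeckle genes, 11 were matched, with 15 windows, and the window with the word belonged to SMARCA4, a chromatin remodeller. One of the shorter cores was held by 6 windows, belonging to CPSF6, DAZAP1, HNRNPH3, HNRNPK, SMARCA4 and TARDBP. Of 7 nuclear speckle genes, 6 were matched, with 7 windows, and none held a word of 9 letters. A core was held by 3 of their windows, from the splicing factor genes SRSF5 and SRSF7. Over all promoter windows, 28.6% held at least 1 of the cores. EGR1 intervals at these genes were not analysed here.

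At NEAT1, the EGR1 intervals lay at the start of the gene and upstream of it, and none lay further inside the gene. The interval across the start, chr11:65189786-65190382, had the highest summit score of the 8, at 56. The score is a whole number that the authors gave each summit, and no source used here names its unit. The summit lay 157 bases upstream of the start. The interval was 597 bp wide, with 483 bases before the start and 114 bases, or 19.1% of it, inside the gene.

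The next interval upstream, chr11:65187414-65187668, was short, at 255 bp, and had a score of 29 with its summit 2749 bases before the start. The third, chr11:65183758-65184187, had a score of 49, a width of 430 bp and a summit 6365 bases before the start. The outer pair thus had scores close to each other, and the middle one was lower. Neighbouring NEAT1 intervals were separated by 3226 and 2117 bp, so each stood alone when neighbours within 1 kb were joined.

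At MALAT1, the EGR1 intervals formed a pair at the start and a group of 3 far upstream. The interval across the start, chr11:65264807-65265715, was 909 bp wide and had a score of 38. Its summit lay inside the gene, 79 bases past the start, and the interval reached 426 bases upstream of the start and covered 483 bases of the gene. A further interval inside the gene, chr11:65266343-65266572, was 230 bp wide and had a score of 17, the lowest of the 8. Its summit lay 1231 bases past the start. A gap of 627 bp separated the pair, which spanned 1766 bp together. The summits of the pair were 1152 bases apart on GRCh37. The 2 RefSeq starts of MALAT1, 1307 bases apart on GRCh38, were not matched to them.

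The upstream group at MALAT1 spanned 1668 bp at chr11:65255513-65257180, near the outer limit of 10 kb. Its first interval, chr11:65255513-65255830, was 318 bp wide with a score of 22 and a summit 9569 bases before the start. The middle one, chr11:65255957-65256391, was 435 bp wide with a score of 32 and a summit 9105 bases before the start. The last, chr11:65256828-65257180, was 353 bp wide with a score of 22 and a summit 8257 bases before the start. The middle interval was thus both the widest and the highest of the group. Gaps of 126 and 436 bp lay between them, and 7626 bp without an interval separated the group from the start interval. Which gene, if any, the group belongs to was not analysed here.

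**Figure D1:**
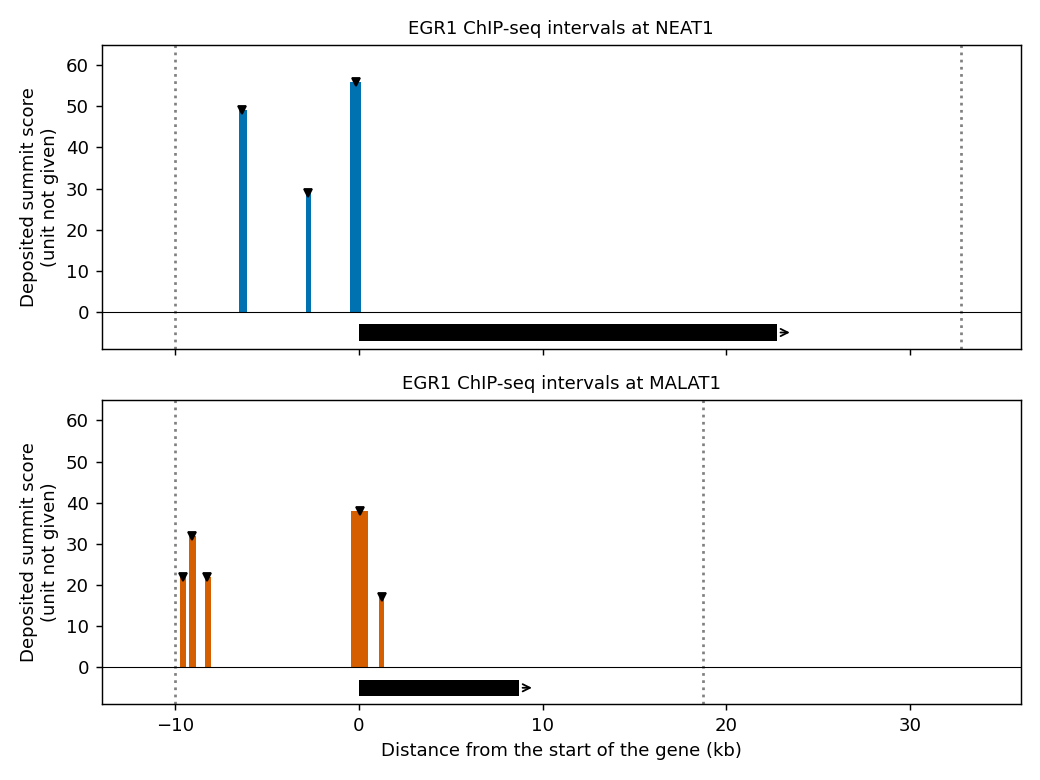
EGR1 ChIP-seq intervals along NEAT1 (above) and MALAT1 (below). The horizontal axis is the distance from the gene's start in kb, each bar is 1 interval drawn to its width with the height of its deposited summit score (unit not given), triangles mark summits, black boxes are the genes, and dotted lines are the limits of 10 kb. All 8 intervals lie upstream of or within 1339 bases of a start, and the remainder of both genes and the 10 kb past their ends hold none.

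The bodies and ends of both genes held no EGR1 interval further in than 1339 bases past a start. After the NEAT1 start interval, no interval was listed for 54146 bp, a stretch that took in 22629 bases, or 99.5%, of NEAT1 and ended at the interval chr11:65244529-65244929. After the last MALAT1 interval, the stretch without one was 41105 bp long and took in 7368 bases, or 84.6%, of MALAT1. Stretches of such length were common. Of the 7686 gaps between neighbouring intervals in the list, 58% were at least as long as the NEAT1 stretch and 62.5% at least as long as the MALAT1 stretch. On chromosome 11 these shares were 48.8% and 53.9% of 451 gaps. Inside the dense 1 Mb bin, chr11:65000001-66000000, whose median gap was 11.6 kb, the stretches ranked 5 and 9 of 43 by length.

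**Figure D2:**
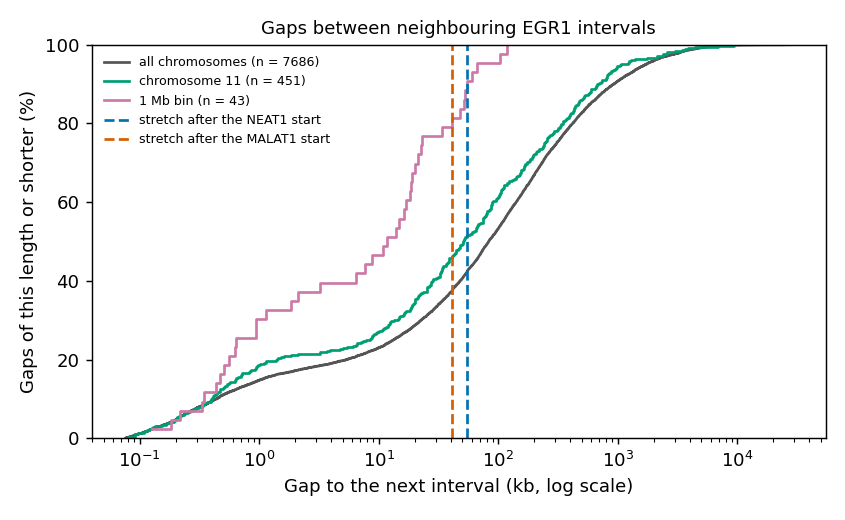
Lengths of the gaps between neighbouring EGR1 intervals. The horizontal axis is the gap in kb on a log scale and the vertical axis is the percentage of gaps of that length or shorter, for all chromosomes, chromosome 11 and the 1 Mb bin; dashed lines mark the stretches of 54.1 kb after the NEAT1 start interval and 41.1 kb after the last MALAT1 interval. Both stretches lie near the middle of the curves for all chromosomes and chromosome 11 and in the upper part of the curve for the bin.

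No interval lay just outside the limit of 10 kb at either gene. On the lower side of NEAT1, the outermost member had its edge 6082 bases from the gene, and the nearest interval outside, chr11:65149531-65149980, lay 40289 bases away with a score of 22. Past the end of NEAT1, the nearest interval lay 31518 bases away and had a score of 16. On the lower side of MALAT1, the outermost member had its edge 9403 bases from the gene, and the nearest outside, chr11:65246079-65246688, lay 18545 bases away with a score of 41. Past the end of MALAT1, the nearest interval lay 33738 bases away. That one, chr11:65307678-65308184, had the highest score of the bin, at 100. The genes themselves are 52.2 kb apart, and 2 intervals lay between them outside the limits, with scores of 16 and 41.

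NEAT1 and MALAT1 intervals were set beside the other 36 intervals of the bin. The NEAT1 scores of 29, 49 and 56 had a median of 49, and the MALAT1 scores of 17, 22, 22, 32 and 38 had a median of 22. The other intervals of the bin ran from 15 to 100, with a median of 22 and quartiles of 19 and 36. The whole list had a median of 26 and quartiles of 20 and 37. The NEAT1 scores were thus spread above the list's median, and those of MALAT1 lay on both sides of it. A score of 26 or more was held by 3 of 3 NEAT1 intervals, 2 of 5 MALAT1 intervals and 14 of the 36 others, against 51% of the list. A score of 57 or more, reached by 10.2% of the list, was held by none of the 8 and by 2 of the 36 others. With 3 and 5 intervals of 1 library, no test of a difference between the genes and the list was made.

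The NEAT1 start interval had rank 3 by score among the 44 of the bin, rank 43 of 452 on chromosome 11 and rank 789 of 7709 in the list, where 89.4% of intervals scored lower. The upstream NEAT1 interval with a score of 49 had rank 6 in the bin, and 85.7% of the list scored lower. The MALAT1 start interval had rank 10 in the bin and rank 107 on chromosome 11, and 76% of the list scored lower. The start intervals of the 2 genes differed by 18 in score, and 13.8% of the list had scores from 38 to 56. How far such scores vary between libraries is not known.

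**Figure D3:**
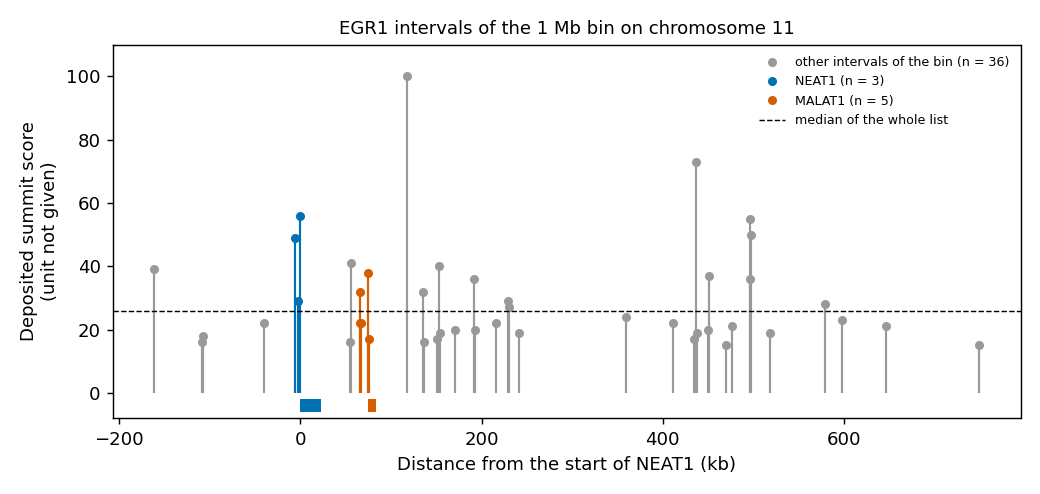
Summit scores of the 44 EGR1 intervals of the 1 Mb bin on chromosome 11. The horizontal axis is the distance of the summit from the start of NEAT1 in kb, the vertical axis is the deposited score (unit not given), boxes below 0 are the genes, and the dashed line is the list's median of 26. The 3 NEAT1 intervals lie above the line, 2 of the 5 MALAT1 intervals do, and the highest score, 100, lies past MALAT1.

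Width and score went apart at the 2 starts. The MALAT1 start interval was the wider, by 312 bp, and had the lower score. It was the second widest of the bin and had rank 12 of 452 on chromosome 11 by width, and 96.4% of the list was narrower. Of the 245 intervals whose width lay within 10% of its own, 23.3% scored lower than its 38, and their median score was 53 (quartiles 39 and 83). The NEAT1 start interval, at 597 bp, was wider than 84.7% of the list. Of the 620 intervals of like width, 74% scored lower than its 56, with a median of 40 (quartiles 28 and 56).

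The other members were ranked in the same way. For the 2 upstream NEAT1 intervals, 86.6% of 1086 and 84.5% of 1488 intervals of like width scored lower than 49 and 29. For the MALAT1 interval inside the gene, 19.7% of 1861 did. In the group upstream of MALAT1, the shares were 30.8%, 57.9% and 25.8%. A NEAT1 interval thus stood higher among intervals of like width than any MALAT1 interval, in all 3 cases. Over the whole list, width and score rose together, with a Spearman rho of 0.639 across 7709 intervals that share 1 library. At or above the list's median width of 343 bp were 2 of 3 NEAT1 and 3 of 5 MALAT1 intervals, against 50.1% of the list.

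**Figure D4:**
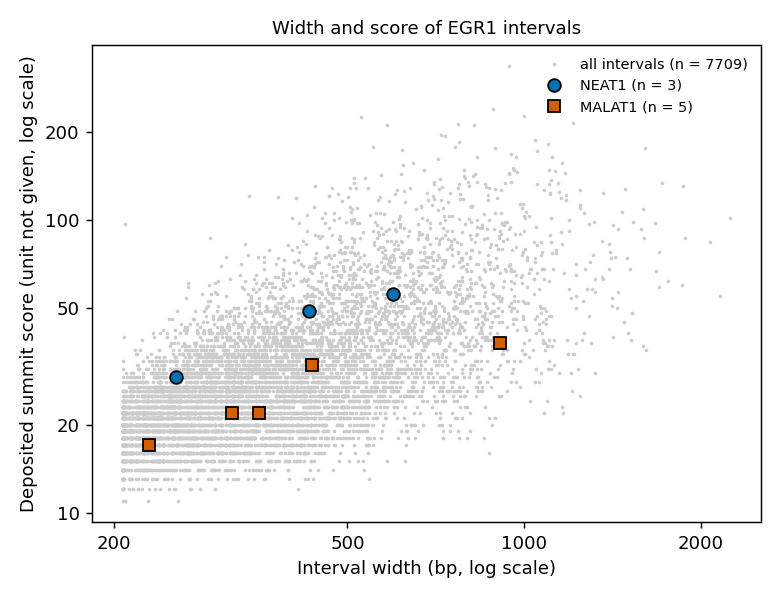
Width and summit score of all 7709 EGR1 intervals, with those of NEAT1 (circles) and MALAT1 (squares) marked. The horizontal axis is interval width in bp and the vertical axis the deposited score (unit not given), both on log scales. The 3 NEAT1 intervals lie in the upper part of the cloud at their widths, and the MALAT1 start interval, 909 bp wide with a score of 38, lies in the lower part at its width.

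At a distance of 1 kb, MALAT1 intervals had close neighbours and NEAT1 intervals did not. The NEAT1 gaps of 3226 and 2117 bp were still shorter than the bin's median gap of 11.6 kb. All 5 MALAT1 intervals had a neighbour within 1 kb, and 0 of 3 NEAT1 intervals did, against 18 of the 36 others in the bin and 27.3% of the list. The group of 3 upstream of MALAT1 was 1 of 3 sites of 3 or more intervals in the bin. The bin's other sites were 7 of 2 intervals and 21 of 1. In the list, the group was 1 of 143 sites of 3 or more among 6573 sites. Such sites thus made up a larger share of the sites in the bin than in the list. Whether the close intervals are parts of 1 enriched stretch was not tested.

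Per length, NEAT1 with its 10 kb margins held 0.702 intervals per 10 kb and MALAT1 held 1.74, against 0.388 in the remainder of the bin, 0.0338 on chromosome 11 and 0.0265 in the list. Intervals covered 3% of the NEAT1 region, 7.82% of the MALAT1 region and 1.6% of the remainder of the bin. Both regions were chosen with their intervals known, so densities and coverage above these backgrounds were in part built into the choice. The lengths used for chromosome 11 and the list take in all sequence from the first to the last interval of a chromosome. A window as long as the MALAT1 region (28708 bp), begun at each interval of the list in turn, held 5 or more intervals in 2% of cases, and in 6 of the 44 begun inside the bin. A window as long as the NEAT1 region (42743 bp) held 3 or more in 14.8% of cases, and in 28 of the 44 of the bin. These windows overlap each other and begin at an interval, unlike the regions of the genes. Some of them, also among those of the bin, took in the NEAT1 or MALAT1 intervals themselves. The shares are thus not a background apart from the members. The higher density at MALAT1 rested on its close neighbours and on its shorter region. In the 10 kb upstream each gene had 3 summits, and inside the gene MALAT1 had 2 and NEAT1 had 0. With neighbours within 1 kb joined, an alternative chosen after seeing the data, MALAT1 held 0.697 sites per 10 kb, NEAT1 held 0.702 and the remainder of the bin held 0.28. Of windows begun at each of the 6573 joined sites, 20.6% of those as long as the MALAT1 region held at least its 2 sites and 7.71% of those as long as the NEAT1 region held at least its 3.

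The summits of 6 of the 8 members were exact multiples of 32 in their coordinates, as were 77.2% of all summits. The other 2, in the group upstream of MALAT1, had a remainder of 16. All 8 summits thus lay on multiples of 16, and distances to the starts, given to the base as deposited, are finer than that spacing. How finely the summits were placed was not tested. The summit positions were used without a shift, since no source used here says whether they count from 0 or from 1. That alone could put each summit distance off by 1 base, apart from the spacing above. The summits lay between 34% and 55.6% of the way along their intervals.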

How the data were processed

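EGR1 was mapped by ChIP-seq in 1 library, with 1 input library. Per the labels' protocols, adapter-ligated DNA was cut from a gel at 200 to 300 bp and amplified by 18 PCR cycles. The submitters' processing notes name build GRCh37.p2 and the tools MACS2 2.1.0, MACS and BWA. Their order and thresholds, and the handling of PCR duplicates, are not stated in the sources used here. The authors deposited interval and summit positions (unit: other) and 1 score per summit, of unknown unit and scaling, used here only to describe and rank within the list. Depth is unknown, so no counting interval is given.

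Interval starts were read as BED starts and are printed 1-based. Distances to genes were taken from interval edges, and neighbours with a gap of at most 1000 bp were joined. Ranks count higher values plus 1. Intervals of like width are those within 10%. Chromosome length is the span from the first to the last interval. All 8 members are named, with the nearest intervals outside the limit and the highest of the bin. Gene positions on GRCh37 came with the choice of members. The members, gene lists and measures were chosen with earlier results of these data known. Promoter windows are RefSeq's on GRCh38.p14. The code for the member search, joining, windows and ranks was run on simulated lists, and 20 of 20 sets were recovered. In these lists, planted members were evenly spaced, close enough to be joined and scored above all others, on an evenly spaced background. That checks the code alone, in a simpler setting than the data. Computing was done in Python 3.11.15 with matplotlib 3.10.9, scipy 1.17.1, pandas 2.3.3 and numpy 2.4.6.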

Additional observations from a re-analysis of the deposited data

How the results depend on the processing

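The values rest on 1 library without replicates or known depth. With a limit of 5 kb there were 2 intervals at NEAT1 and 2 at MALAT1, because the group of 3 upstream of MALAT1 lies beyond it. Counting overlap with the gene alone left 1 at NEAT1 and 2 at MALAT1. At a score of 26 or more MALAT1 had 2 intervals, and at 57 or more both genes had 0. Joining neighbours within 1000 bp left 2 sites at MALAT1, or 0.697 per 10 kb in place of 1.74, and left NEAT1 at 0.702. The median score at NEAT1 was 42.5 at 5 kb and 56 for the gene alone. At MALAT1 it was 27.5 at 5 kb and for the gene alone, and 27 at 20 kb. The NEAT1 median was the higher under each of these limits, but the limits share the same start intervals and are not independent checks. At 5 kb the NEAT1 median rests on 2 intervals, and for the gene alone on 1. The background median was 24 for 3 Mb and for chromosome 11, and 26 for all intervals. The other alternatives moved counts by at most 1.5 times. No paired analysis was possible because each group has 1 library and only the ChIP library was analysed.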
